A study of Mus musculus with 346 samples.

Results

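Single-cell transcriptomes of the pre-pubertal mouse mammary gland were divided by their level of Krt14, the keratin that marks the basal layer of stratified and glandular epithelia. Of the 346 cells in the series, 144 came from pre-pubertal glands, and 116 of these passed a coverage filter of 100000 reads and 1500 detected genes. The members were chosen by the measured Krt14 value itself: 17 cells with Krt14 above 40 RPKM were taken as Krt14-positive, and the 99 cells at or below 40 RPKM as Krt14-low. RPKM is the number of reads per 1000 bases of gene length and per 1000000 reads of the cell. Because Krt14 made the groups, its values are given as a description, and Krt14 was left out of every gene list and count that follows.

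Both groups were untreated cells from 2-week-old mice of the inbred strain FVB/NJ. The labels give the source as total epithelium of the mammary gland, sorted and caught on a Fluidigm C1 chip, which isolates each cell in its own chamber and amplifies its polyadenylated RNA. The design text names 8 mice for each stage, but no cell is tied to a mouse. The study's text gives other mouse numbers and describes independent experiments, to which no label assigns the cells. All pre-pubertal cells were therefore treated as 1 sample, cells were not used as replicates, and no statistical test was made. For comparison, the same filter and threshold gave 29 Krt14-positive cells of 119 kept at puberty (4.7 to 4.9 weeks) and 19 of 44 kept in the adult (10 weeks). Intervals are at 95%, exact Poisson for read counts and exact (Clopper-Pearson) binomial for shares of cells, and cover counting error only.

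The mammary epithelium has an inner layer of luminal cells and an outer layer of basal cells, most of which are myoepithelial. Basal cells carry the keratins Krt5 and Krt14 and the transcription factor Trp63, and adhere to the basement membrane through integrins and laminins. Myoepithelial cells also build a smooth-muscle apparatus of Acta2, Myh11 and their regulators, and contract when oxytocin reaches its receptor, Oxtr. Schwann cells, the glia of peripheral nerves, belong to another lineage and are recognised by Sox10 and myelin proteins.

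The 2 groups were sequenced to similar depths. The median Krt14-positive cell had 310324 reads over the genes analysed (range 109390 to 1188785) and the median Krt14-low cell 295966 (121214 to 1166979). After each cell had been thinned at random to 100000 reads, a median of 3357 genes (2132 to 4609) was detected in Krt14-positive and 2785 (1283 to 4822) in Krt14-low cells. Mitochondrial genes took a median of 4.14% and 3.43% of all reads. No 2 cells held identical counts.

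Krt14 (Entrez 16664, chromosome 11, 100203162 to 100207510 in GRCm38.p6) ranged from 49.6 to 3033 RPKM in the Krt14-positive cells, with a median of 298. Of these 17 cells, 13 were above 100 RPKM. Among the Krt14-low cells, 76 had no Krt14 read, 23 had at least 1 and 9 had exactly 1. The lowest Krt14-positive cells were cell 129, at 49.6 RPKM from 9 reads, and cell 58, at 68.0 RPKM from 36 reads. The nearest cells on the other side were cell 121, at 36.2 RPKM from 25 reads, and cell 63, at 27.8 RPKM from 12. The values thus ran through the threshold without a gap, and cell 129 owes its place to few reads. Of the 75-base stretches of the longest Krt14 transcript, 5.91% also occurred in another gene's transcript, that of Krt16, which had 2 reads in all 116 cells.

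**Figure D1:**
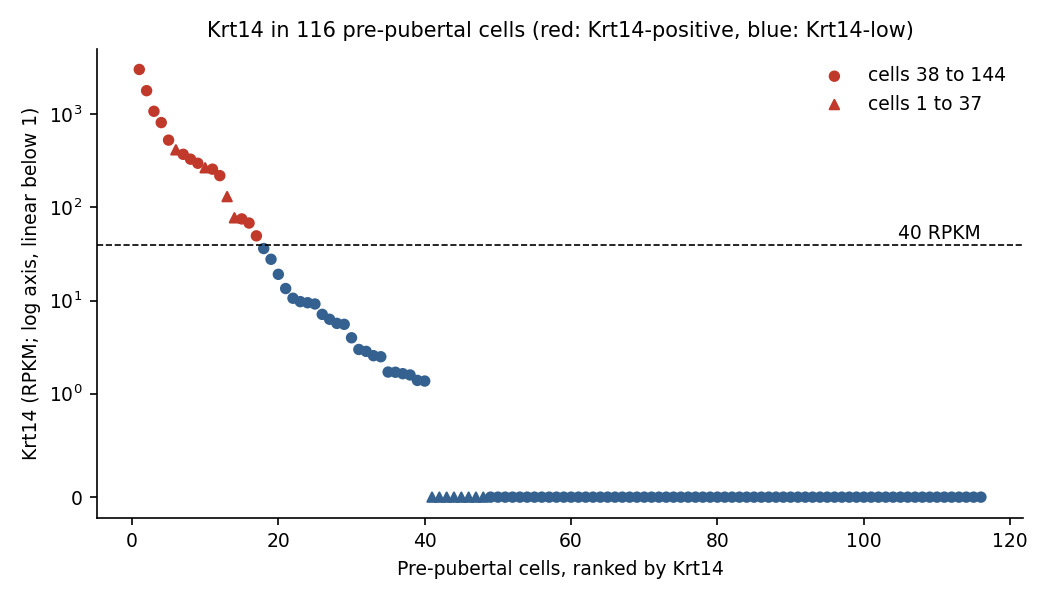
Krt14 in RPKM (vertical axis, logarithmic above 1 and linear below) for each of the 116 pre-pubertal cells, ranked from highest to lowest; red points are the 17 Krt14-positive cells, blue points the 99 Krt14-low cells, triangles are cells 1 to 37 of the labels and circles the later cells. Values run from 3033 RPKM down to 49.6 above the dashed line at 40 RPKM and start at 36.2 below it, and 76 cells lie at 0.

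The share of Krt14-positive cells was 14.7% (8.78 to 22.4) of the kept pre-pubertal cells. It was 33.3% (4 of 12, 9.92 to 65.1) among cells numbered 1 to 37 in the labels and 12.5% (13 of 104, 6.83 to 20.4) from cell 38 on, a split that shows in the depth of the files (medians of 937342 and 283451 reads) and is not named in the labels. None of the 8 Krt14-low cells numbered 1 to 37 had a Krt14 read, although they were the deeper set, whereas 23 of the 91 later Krt14-low cells had one. What separates the 2 sets of cell numbers was not tested.

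Across the transcriptome, reads were summed over the cells of each group and given as counts per 1000000 reads (CPM), and the log2 ratio of Krt14-positive to Krt14-low cells was taken after adding 5 CPM to both values. Considered were 7950 genes with at least 10 CPM over all 116 cells and a read in at least 5% of the thinned cells. A gene was counted as higher or lower in the Krt14-positive cells when its log2 ratio was at least 1 in size and stayed so without the cell that held most of its reads in the higher group. By this rule 340 genes (4.28%) were higher and 1568 (19.7%) were lower. The median log2 ratio of all 7950 genes was -0.27, so the 2 directions do not start from the same point, and list medians below are to be read against that value. The lower share differed between definitions of the groups. It was 7.62% when the 40 cells with any Krt14 read were taken as positive and 24.8% with the 13 cells above 100 RPKM. It was 20.6% in cells 38 to 144, with 13 Krt14-positive cells, and 18.0% without cell 30, with 16. The Krt14-positive group sums fewer cells, and whether its size bears on the lower share was not tested. Of the higher genes, 139 were detected in at least 50% of the thinned Krt14-positive cells. Of the lower genes, 171 were detected in at least 50% of the thinned Krt14-low cells and 122 had no read in the Krt14-positive cells.

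The contractile genes of smooth muscle had the highest median log2 ratio of the 23 gene lists. Of the 17 listed genes 15 were considered, and 13 of these were higher and 0 lower, beside the background of 4.28% for all genes. Their median log2 ratio was 3.98, and 3.86 for the list with no filter on low counts; Cnn1 and Actg2 were under 10 CPM in the Krt14-low cells and passed the filter through the Krt14-positive cells. A median of 13 contractile genes (2 to 16) was detected in a thinned Krt14-positive cell and 4 (1 to 12) in a Krt14-low cell, and no Krt14-low cell reached 13. The summed level of the list was 152.2 to 37527 CPM in single Krt14-positive cells (median 5991) and 32.1 to 13002 CPM in Krt14-low cells (median 644), so the 2 groups overlapped in level.

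Acta2, the smooth-muscle actin that gives myoepithelial cells their contractile filaments (Entrez 11475, chromosome 19, 34240336 to 34255585), ran from 0 to 10859 CPM in the Krt14-positive cells with a median of 828 CPM. In the Krt14-low cells it ran from 0 to 2482 CPM with a median of 0. Summed over cells, it stood at 3339 CPM (3294 to 3384) against 110 CPM (107 to 114). The log2 ratio of Acta2 was 4.86, and 3.84 without cell 30. It was detected in 15 of 17 thinned Krt14-positive cells (88.2%, 63.6 to 98.5) and in 24 of 99 Krt14-low cells (24.2%, 16.2 to 33.9).

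The partners of Acta2 followed the same order. Tagln, an actin-binding protein of smooth muscle, had a log2 ratio of 5.09 and was detected in 14 of 17 and 19 of 99 thinned cells. Tagln shares 40.9% of its 75-base stretches with transcripts of Pcsk7 and Gm48529, which leaves its level uncertain. Mylk, the kinase that switches on smooth-muscle myosin, had a log2 ratio of 5.74, which was 4.39 without cell 30, and was detected in 15 of 17 and 28 of 99 cells. Myh11, the heavy chain of that myosin, had a log2 ratio of 4.48, Cnn1 (calponin) 5.11 and Tpm2 (a tropomyosin) 4.46, which were 3.52, 4.15 and 3.86 without the top cell. The oxytocin receptor gene Oxtr ran from 0 to 3824 CPM with a median of 305 in the Krt14-positive cells, had a log2 ratio of 4.59 (3.38 without the top cell), and was detected in 14 of 17 and 17 of 99 cells. Cald1 and Synpo2 were the considered members that did not pass, with log2 ratios of 1.13 and 1.67 that were 0.59 and 0.65 without the top cell.

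Cell 30 weighs on these sums. It held 1188785 reads, or 18.4% of all reads of the Krt14-positive cells, and was the cell with most reads for 11 of the 13 higher contractile genes. The summed level of the list was 12721 CPM with it, 7128 CPM without it and 966 CPM in the Krt14-low cells. The median log2 ratio of the list was 3.38 without cell 30, and the numbers of higher and lower genes were then 323 and 1433.

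Contractile genes are known targets of serum response factor, which binds the CArG box. Promoter windows were taken from RefSeq for GRCm38.p6, each with the 250 bases before 1 annotated start, and were searched for a perfect box. Shown are the contractile gene whose window holds one, Myl9, and the marker gene Krt5, each only as far as the first base of the whole gene, because the Myl9 window precedes a start inside the gene and so reaches into it. The box is in capitals and the rest in lower case, 5′ to 3′ on the strand of the gene (Myl9 chr2:156775214-156775407, plus strand, 194 bases; Krt5 chr15:101712906-101713155, minus strand, 250 bases).
Myl9: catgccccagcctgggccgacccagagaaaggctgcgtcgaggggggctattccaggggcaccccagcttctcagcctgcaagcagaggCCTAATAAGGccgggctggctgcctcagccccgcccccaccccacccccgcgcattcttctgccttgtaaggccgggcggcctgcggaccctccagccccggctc
Krt5: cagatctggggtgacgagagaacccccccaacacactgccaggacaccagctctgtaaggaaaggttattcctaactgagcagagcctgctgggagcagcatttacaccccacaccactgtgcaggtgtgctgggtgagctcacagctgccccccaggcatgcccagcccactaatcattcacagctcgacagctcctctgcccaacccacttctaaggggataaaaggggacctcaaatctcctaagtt
The Myl9 box begins 105 bases before the gene. A perfect box on either strand occurred in 1.47% of the 32851 windows of 250 bases, and in 1 of the 16 windows that matched 13 of the 17 contractile genes. The Krt5 window held none, which says only that these letters are not in this stretch. Myl9, the regulatory light chain of smooth-muscle myosin, stood at 932 CPM (908 to 956) against 54.5 (52.0 to 57.0), a log2 ratio of 3.98, and was detected in 13 of 17 and 31 of 99 thinned cells. Without cell 30 the level of Myl9 was 549 CPM and the log2 ratio 3.22.

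Basal keratins and adhesion genes also stood higher, with wider spread. Of the 20 listed genes 14 were considered, with a median log2 ratio of 2.85. Of these, 9 were higher and 1 lower, beside 4.28% and 19.7% of all genes. These counts lean on the filter, since 6 of the 14 (Krt5, Trp63, Cdh3, Col17a1, Lama3 and Trim29) were under 10 CPM in the Krt14-low cells and passed through the Krt14-positive cells, and with no filter the list median was 2.33. A thinned Krt14-positive cell expressed a median of 10 of them (5 to 13) and a Krt14-low cell 3 (1 to 12). Krt5, the keratin that pairs with Krt14 (Entrez 110308, chromosome 15, 101707069 to 101712905), ran from 0 to 1118 CPM in the Krt14-positive cells with a median of 293, and from 0 to 460 CPM with a median of 0 in the Krt14-low cells. The sums were 368 CPM (353 to 383) and 8.73 CPM (7.77 to 9.78), a log2 ratio of 4.76 that was 4.63 without the top cell. Krt5 was detected in 14 of 17 thinned cells (82.4%, 56.6 to 96.2) and in 11 of 99 (11.1%, 5.68 to 19.0). Krt17, a keratin of basal and appendage epithelia, had a log2 ratio of 3.87 (3.10 without the top cell) and was found in 15 of 17 and 16 of 99 thinned cells.

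Other higher members of this list were Trp63 (log2 ratio 3.13), the basal lineage factor; Col17a1 (3.52), a hemidesmosome collagen; the laminin chain Lama3 (2.33); Perp (3.30), a Trp63 target of desmosomes; Sfn (2.18) and Trim29 (4.09). Perp and Trim29 were at 2.70 and 2.68 without the top cell, which held 70.4% of the Krt14-positive Trim29 reads. Trp63 was detected in 10 of 17 and 12 of 99 thinned cells. The integrins went another way. Itgb4, the hemidesmosome integrin chain, was lower at 25.8 CPM (22.1 to 30.1) against 104 CPM (100 to 107), with a log2 ratio of -1.82. Itga6, its partner and a gene used to sort basal cells, stood at 809 CPM (788 to 832) and 544 CPM (536 to 552), with a log2 ratio of 0.57 that was -0.47 without the top cell. Itga6 and Itgb4 therefore did not move with the keratins. Krt15 had a log2 ratio of 5.20 that rested on cell 27, which held 99.5% of its Krt14-positive reads, and it was -0.18 without that cell.

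Krt5 and Acta2 were both above 40 RPKM in 7 of the 116 cells, and all 7 were Krt14-positive. At least 1 of the 2 was above 40 RPKM in 16 of the 17 Krt14-positive cells and in 10 of the 99 Krt14-low cells. At least 7 basal and at least 7 contractile genes were detected together in 12 Krt14-positive cells and in 1 Krt14-low cell, cell 69, which had 10 Krt14 reads (19.1 RPKM).

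General epithelial genes were sparse in both groups. Of the 16 pan-epithelial genes 7 were considered, of which Krt8 and Dsp were higher and 0 lower, beside 4.28% and 19.7% of all genes. The median log2 ratio of 0.74 was -0.06 when every cell had equal weight. A median of 4 (1 to 7) was detected in a thinned Krt14-positive cell and 1 (0 to 9) in a Krt14-low cell. Krt8, a keratin of simple and luminal epithelium, was at 101 CPM (93.8 to 109) against 21.1 CPM (19.5 to 22.7) and was detected in 9 of 17 and 2 of 99 thinned cells; 23.5% of its 75-base stretches also occur in pseudogene transcripts. Krt18, its partner, was at 30.6 CPM (26.5 to 35.2) against 80.4 CPM (77.4 to 83.4), but 96.3% of the Krt14-low reads came from cell 110. Epcam, the adhesion molecule often used to sort epithelium, was detected in 7 of 17 (41.2%, 18.4 to 67.1) and 9 of 99 (9.09%, 4.24 to 16.6) thinned cells, and Cdh1, encoding E-cadherin, in 1 and 6. Markers of luminal progenitors had a median of 0 of 10 genes per thinned cell in both groups. The range was 0 to 1 in Krt14-positive and 0 to 6 in Krt14-low cells. Krt14-low cell 55 had the 6, together with 8 pan-epithelial genes. Of the 3 luminal progenitor genes considered 0 were called. Of the 3 mature luminal genes considered 1 was higher and 0 lower, beside 4.28% and 19.7% of all genes. It was Gata3, a luminal transcription factor (log2 ratio 3.32), with a read in 14 of 17 and 12 of 99 thinned cells.

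**Figure D2:**
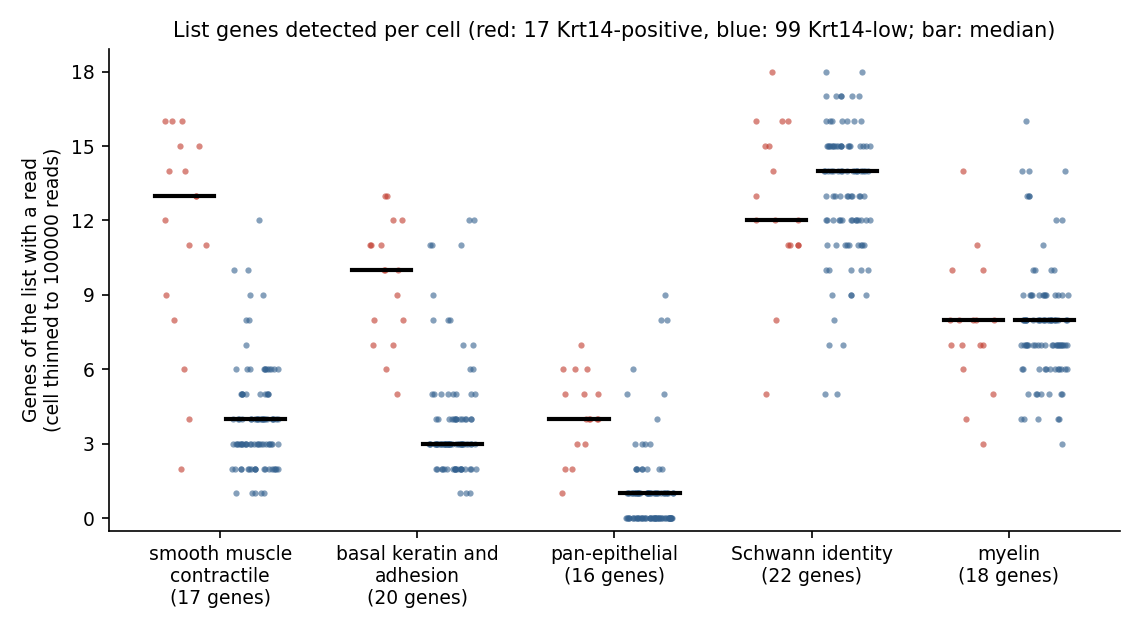
Number of genes of each list with at least 1 read (vertical axis) in single cells thinned to 100000 reads; red points are the 17 Krt14-positive cells, blue points the 99 Krt14-low cells, black bars the medians, and points are spread sideways for clarity. Contractile genes separate the groups most (medians 13 and 4), while Schwann identity genes are present in both (medians 12 and 14).

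Schwann cell genes were present in both groups, at lower levels in the Krt14-positive cells. The label of the cells as epithelium was therefore checked against glial markers as well as against Krt5 and Acta2. A thinned Krt14-positive cell carried a median of 12 of 22 Schwann identity genes (5 to 18) and a Krt14-low cell 14 (5 to 18), and 15 of the 17 Krt14-positive cells had at least 10. The summed level of the list was 4432 to 18407 CPM in Krt14-positive cells (median 11628) and 69.5 to 52011 CPM in Krt14-low cells (median 14881). Of the 21 genes considered 1 was higher and 5 were lower, with a median log2 ratio of -0.72, and the share of lower genes was close to the 19.7% of all genes.

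Scn7a, a sodium channel of glia that is also among the study's adult basal genes, was detected in all 17 and all 99 thinned cells. Its medians were 5659 and 5482 CPM, with a log2 ratio of -0.54 between the sums. Kcna1, a potassium channel gene, was in 16 of 17 and 96 of 99 thinned cells with a log2 ratio of -0.91. Sox10, a transcription factor of the Schwann lineage, was lower, at 49.2 CPM (44.0 to 54.9) against 291 CPM (286 to 297). Its log2 ratio was -2.45, with a read in 10 of 17 and 78 of 99 thinned cells. Erbb3, the neuregulin receptor, Ncam1 and Fabp7 were also lower. Nrcam was the higher one, from 2 of 17 and 6 of 99 thinned cells, and passed the filter through the Krt14-positive cells.

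The myelin list showed the same order. Of 15 genes considered 0 were higher and 6 were lower, beside 19.7% lower among all genes, and the median log2 ratio was -0.96 beside -0.27. Pmp22, a myelin membrane protein, was at 2227 CPM (2191 to 2263) against 5549 CPM (5524 to 5574). Mag had no read in the Krt14-positive cells and was at least 38.7-fold lower there, taking 3 counts over the group as the limit. Mbp, a basic protein of myelin, did not pass (log2 ratio -0.66) and was found in 15 of 17 and 92 of 99 thinned cells.

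Basal and glial genes were thus read in the same Krt14-positive libraries. At least 10 Schwann and at least 7 contractile genes were detected together in 12 of the 17 Krt14-positive and 6 of the 99 Krt14-low cells. The lowest Schwann count, 5 genes, was in cell 119, the cell with most Krt14. Scn7a was at 357 CPM there, below its median of 629 CPM in adult Krt14-positive cells. Captured cells were viewed under a microscope by the authors before cDNA was made, and no doublet caller was run here. Whether 2 cells in a chamber or RNA from other cells contributed was not tested.

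**Figure D3:**
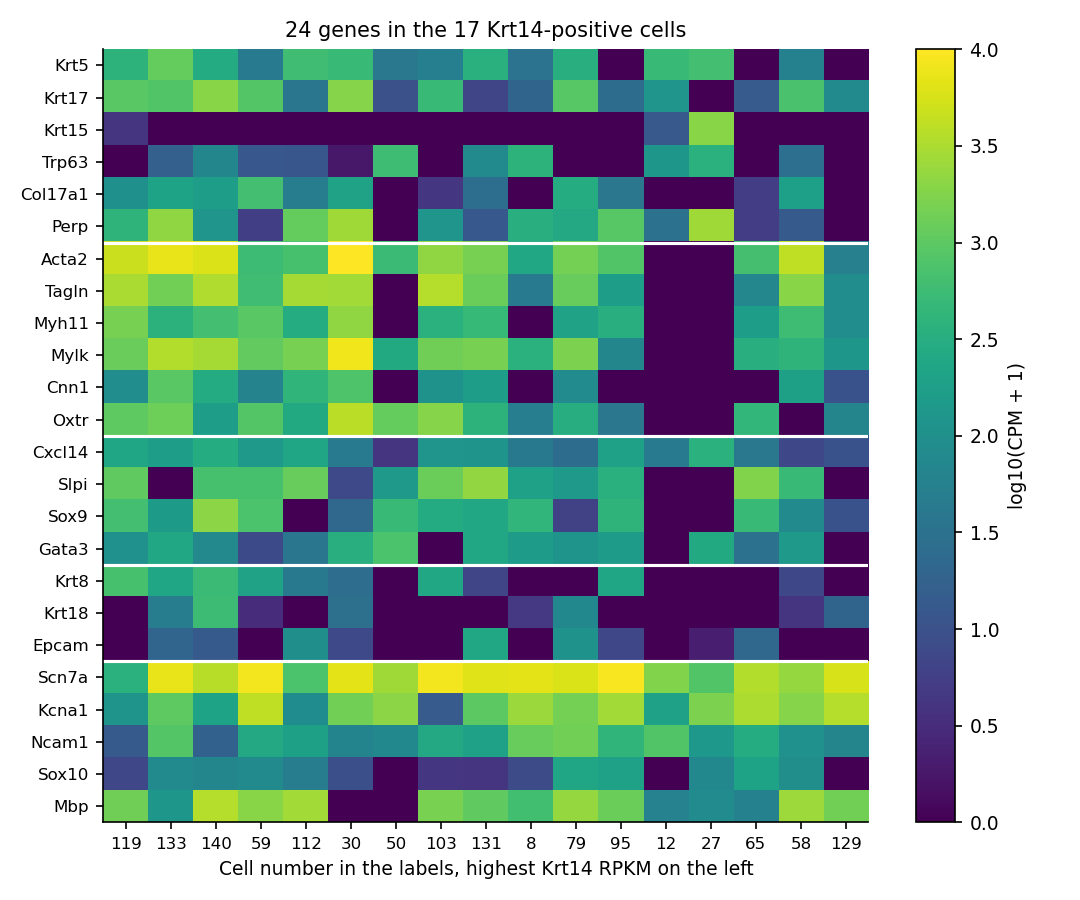
Levels of 24 genes (rows) in each of the 17 Krt14-positive cells (columns, named by cell number, with the highest Krt14 on the left) as log10(CPM + 1), from dark (0) to yellow (4). White lines separate basal, contractile, other higher, simple epithelial and glial genes. Cells 12 and 27 have no Acta2, and Scn7a and Kcna1 are read in all 17 cells.

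The Krt14-positive cells were not uniform. Cells 12, 27 and 50 had fewer than 7 contractile genes (2, 4 and 6), and the other 14 had at least 8. Cells 12 and 27 had no read of Acta2, Myh11, Tagln, Mylk or Oxtr, but had Krt5 at 518 and 646 CPM and Trp63 at 130 and 355 CPM, with 11 and 10 basal genes detected. Cell 27 alone had much Krt15, a keratin of basal keratinocytes and hair follicles, at 1913 CPM. Cell 50 had the highest Trp63 of the 17, at 579 CPM, together with Acta2 at 523 CPM and Oxtr at 1129 CPM. At the other end, cells 119, 133, 30, 140 and 103 each had 14 to 16 contractile genes and Acta2 between 2178 and 10859 CPM. Krt14 and Acta2 did not share 1 ranking, since cell 30 had the most Acta2 and only the sixth highest Krt14 (415 RPKM). Without cells 12, 27 and 50, which were set aside after their values were seen, 268 genes were higher and 1758 lower.

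Some cells called Krt14-low had basal genes. Of the 99, 11 had at least 7 basal genes, and 10 of these had fewer than 7 contractile genes. Cell 91 had Krt5 at 460 CPM, the most of any Krt14-low cell, without a Krt14 read in 217431 reads. Krt14-low cells with a Krt14 read had a median of 5 contractile genes (2 to 9, 23 cells). Those without one had 3 (1 to 12, 76 cells), against 13 in the Krt14-positive cells. The medians of basal genes were 4 and 3, against 10. These medians did not mark a clean step at the threshold. The Krt14-low cells with most Krt14, cells 121, 63, 69, 68 and 57, had 5, 8, 8, 7 and 9 basal genes. They had 9, 6, 7, 2 and 6 contractile genes, beside 2, 4, 6 and 8 in Krt14-positive cells 12, 27, 50 and 129.

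Beyond the lists, the 12 genes with the largest log2 ratios without their top cell included 6 that are in neither the contractile nor the basal list. All 6 were under 10 CPM in the Krt14-low cells and passed the filter through the Krt14-positive cells. Slpi, a secreted protease inhibitor, stood first at 472 CPM (455 to 489) against 1.81 CPM (1.39 to 2.32), a log2 ratio of 6.13, with a read in 13 of 17 and 4 of 99 thinned cells. Pdlim3, a protein of actin-anchored structures in muscle, had a log2 ratio of 4.82 and was in 13 of 17 and 3 of 99 cells. Ano1, a chloride channel gene, had 3.96 (11 of 17 and 7 of 99 cells) and Ecrg4 4.50 (10 and 12), the latter 3.81 without the top cell. Map9 (5.61, and 3.89 without the top cell) and Timm29 (4.65, and 3.93) came from 5 and 6 of the 17 thinned cells, and 76.0% of the Krt14-positive Map9 reads were in 1 cell.

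Other secreted and regulatory genes singled out after their values were seen were also higher. Cxcl14, a chemokine of basal epithelium, had at least 1 read in all 17 Krt14-positive cells and in 14 of the 99 Krt14-low cells, at 2.96 to 353 CPM with a median of 119 in the former and a log2 ratio of 4.12. Fxyd3, a regulator of the sodium pump, had a log2 ratio of 3.98, and Fgfr2, a receptor for fibroblast growth factors, 4.15 (3.27 without the top cell). The transcription factor genes Sox9 and Snai2 had log2 ratios of 3.68 and 3.95 (3.28 and 3.08 without the top cell); Sox9 was in 13 of 17 and 23 of 99 thinned cells and Snai2 in 8 and 11. Mme, the membrane protease also known as CD10, had a log2 ratio of 3.62, and Igfbp3, which binds insulin-like growth factors, 3.95 (3.05 without the top cell). Among those under 10 CPM in the Krt14-low cells, which passed the filter through the Krt14-positive cells, were Cxcl14, Snai2 and Igfbp3.

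The genes with the largest ratios in the other direction were mostly detected in a minority of the Krt14-low cells. Mmd2 was at 1.55 CPM (0.742 to 2.85) against 214 CPM (209 to 219) and had a read in 1 of 17 and 23 of 99 thinned cells. Dcn, the matrix proteoglycan decorin of fibroblasts, was at 6.19 CPM (4.42 to 8.43) against 420 CPM (413 to 427), from 2 of 17 and 10 of 99 cells. Mfap5, a microfibril protein, was in 0 of 17 and 6 of 99 cells. Fam53c, with no read in the Krt14-positive cells, was at least 182-fold lower on the limit of 3 counts, and was in 13 of 99 cells. Itpripl1, Gm20199 and Rassf1 were broader, in 51, 62 and 52 of the 99 Krt14-low cells and in 4, 6 and 5 of the 17 Krt14-positive cells, with log2 ratios of -3.88, -3.92 and -3.85. Get1, Cep350, Nsdhl, Cdk18 and Crybg3 completed the 12, with log2 ratios of -4.67, -3.80, -3.80, -3.73 and -3.73 without the top cell.

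**Figure D4:**
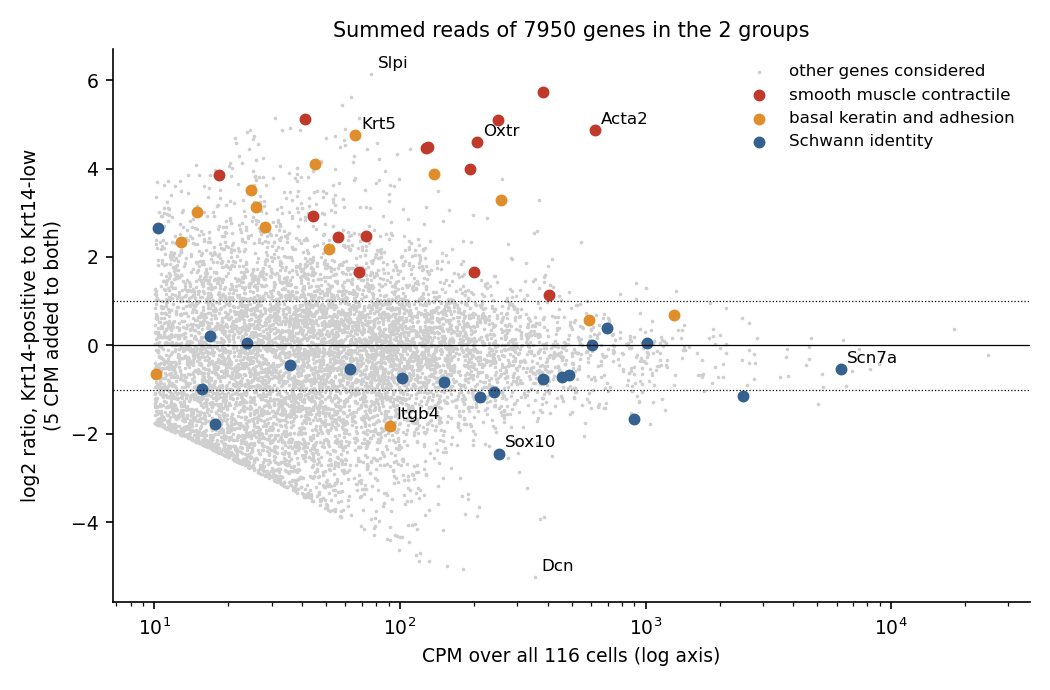
Log2 ratio of Krt14-positive to Krt14-low cells (vertical axis, 5 CPM added to both groups) against the level of each gene over all 116 cells in CPM (logarithmic horizontal axis) for 7950 genes; dotted lines mark ratios of 1 and -1. Contractile genes (red) lie above 1 throughout, basal genes (orange) mostly so apart from Itgb4 and a few near 0, and Schwann identity genes (blue) lie mostly between 0 and -2.45.

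Markers of most other cell types sat in few cells. Of 13 fibroblast genes considered 0 were higher and 5 lower (Col1a1, Dcn, Lum, Pdgfra and Mfap5). Among all genes 4.28% were higher and 19.7% lower. The median log2 ratio of the fibroblast list was -1.40, beside -0.27 for all genes. The list median was -0.46 without the 9 Krt14-low cells that had at least 8 fibroblast, 4 endothelial or 5 pericyte genes. No Krt14-positive cell met those limits. Both groups had a median of 5 of 15 fibroblast genes per thinned cell. Endothelial, immune, melanocyte, neuronal and skeletal muscle lists had a median of 0 genes per cell in both groups, and pericyte genes a median of 1. Of 12 epidermal keratinocyte genes 1 was considered, Lgals7, and it was higher (log2 ratio 1.81, from 3 of 17 and 6 of 99 thinned cells). Lgals7 was under 10 CPM in the Krt14-low cells and passed the filter through the Krt14-positive cells.

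The study took 200 basal genes from earlier bulk RNA-seq. Of the 115 considered, 28 were higher, beside 4.28% of all genes, and 18 were lower, beside 19.7%, so the lower count was near the background. The median log2 ratio was -0.02 beside -0.27 for all genes. The higher count leans on the filter, since 18 of the 115 were under 10 CPM in the Krt14-low cells. Those genes passed through the Krt14-positive cells. With no filter the list median was 0.04, beside -0.04 for all genes. Of the higher genes 10 are in the contractile list and 5 in the basal keratin and adhesion list. Others among the 28 were Nrg1, the neuregulin ligand, Gja1, encoding connexin 43, and Tshz2. A median of 68 of the listed genes (39 to 92) was detected per thinned Krt14-positive cell and 41 (27 to 76) per Krt14-low cell. Among the 18 lower basal genes were Nkd2, a Wnt antagonist (log2 ratio -2.51), Mef2c and Kif1a. Of the 200 luminal genes of the study 39 were considered. Of these, 2 were higher (Clu and Prex1) and 8 lower, near the background of 4.28% and 19.7%. Clu was under 10 CPM in the Krt14-low cells and passed the filter through the Krt14-positive cells. The luminal median log2 ratio was -0.66, and 0.11 when any Krt14 read defined the positive cells.

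The Krt14-positive cells of the later stages are set beside those of pre-puberty as values, since each stage is 1 sample. The number of contractile genes detected had medians of 13 (2 to 16) at pre-puberty, 12 (7 to 15) at puberty and 12 (6 to 16) in the adult. The summed level of that list was 12721 CPM at pre-puberty (7128 without cell 30), 15222 CPM at puberty and 26380 CPM in the adult. Basal keratin and adhesion genes had medians of 10 (5 to 13), 9 (4 to 14) and 10 (3 to 14). Pan-epithelial genes had medians of 4 (1 to 7), 10 (2 to 14) and 8 (0 to 13). Schwann identity genes had medians of 12 (5 to 18), 2 (0 to 8) and 1 (0 to 3). The ranges of Schwann genes in pre-pubertal and adult Krt14-positive cells did not overlap, and whether this is a difference between stages or between sorts and chips cannot be told apart.

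For single genes, Krt14 itself had medians of 495, 448 and 849 CPM in the Krt14-positive cells of the 3 stages. Acta2 had medians of 828, 4684 and 7705 CPM, and was detected in 15 of 17, 28 of 29 and 18 of 19 thinned cells. Epcam was detected in 7 of 17, 29 of 29 and 17 of 19 thinned cells, and Krt18 in 5, 23 and 16. Sox10 was detected in 10 of 17, 10 of 29 and 4 of 19 thinned cells, and Scn7a in 17, 12 and 17. The Scn7a medians were 5659, 0 and 629 CPM, so neither gene was confined to pre-puberty. Kcna1 was detected in 16 of 17, 3 of 29 and 0 of 19 thinned cells. The exact interval of that last share reaches 17.6%.

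**Figure D5:**
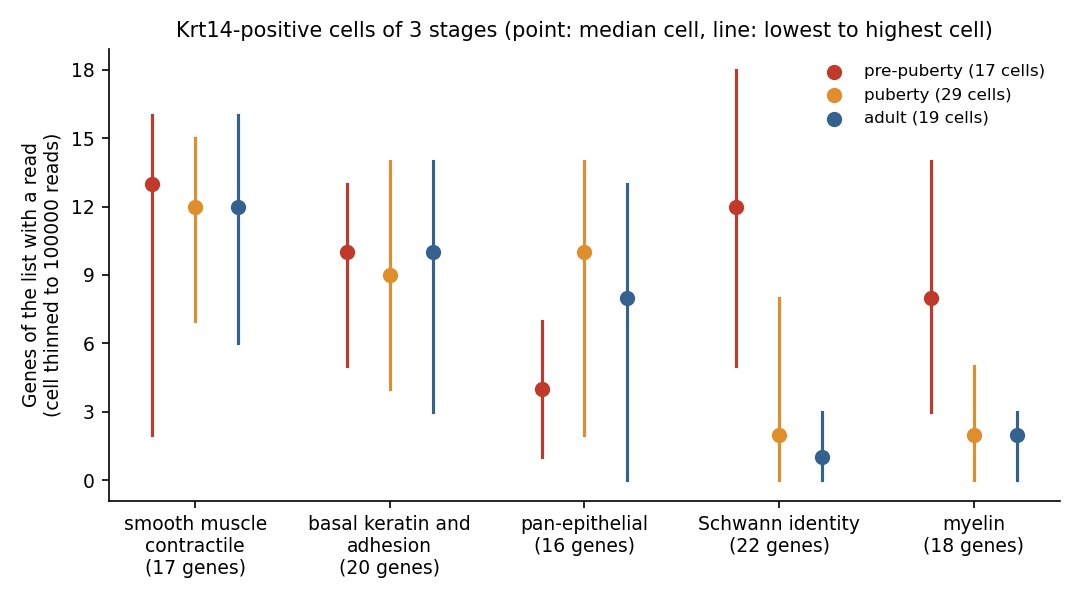
Number of genes of each list with a read (vertical axis) in Krt14-positive cells thinned to 100000 reads, at pre-puberty (17 cells, red), puberty (29, orange) and in the adult (19, blue); points are medians and lines run from the lowest to the highest cell. Contractile medians are 13, 12 and 12, whereas Schwann identity medians are 12, 2 and 1.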

How the data were processed

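Each deposited file gives raw counts, the read pairs assigned to each Entrez gene in 1 cell. Per the labels, the authors used the mm10 genome, Subread 1.4.6 and featureCounts (version not given in the sources used here). Each file also holds the deposited length of each gene, used only for RPKM. There were no molecular identifiers, so amplified copies count separately. How pairs shared by similar genes were counted is not given in the sources used here. Symbols and coordinates came from RefSeq for GRCm38.p6, the assembly of mm10. Of 27179 genes, 1904 without a match, 15 mitochondrial and 119 ribosomal protein genes were removed, which took 7.21% of the reads of Krt14-positive and 5.79% of Krt14-low cells.

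Reads were summed per group, with exact Poisson intervals. No test was possible, because no cell is tied to a mouse. The 23 gene lists, the threshold and the members were chosen with earlier results of these data known, and 1 listed gene had no match. Named were the marker genes, list members that were called or define a list, the 12 largest log2 ratios without the top cell in each direction, the main keratins and genes a statement turns on. Calculations ran in Python 3.11.15 (numpy 2.4.6, scipy 1.17.1, pandas 2.3.3) and R 4.3.3 (edgeR 4.0.16, for TMM factors only), and were tested on simulated cells. The authors' table of the whole series was not used. Some members of the gene lists are counted but not reported here by name.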

Additional observations from a re-analysis of the deposited data

Results flagged for a closer look

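Signals appeared in the 28 pre-pubertal cells that failed the coverage filter and enter none of the comparisons, of which 25 are numbered 1 to 37. With 1433 to 99185 reads each, they summed to 532520 reads, and 44 of these were Krt14 reads, or 82.6 CPM (60.0 to 111), against 140 CPM over all kept cells. Krt14 had a read in 11 of the 28, and 8 were above 40 RPKM, from 1 to 13 reads. The contractile list summed to 4355 CPM (4179 to 4536) in them, against 2832 CPM over all kept cells. At these depths a single read can place a cell above the threshold.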

How the results depend on the processing

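No replicate exists, so the choices were varied 1 at a time and values compared. No paired analysis was possible because no cell is tied to a mouse and no result comes from a test. Taking any Krt14 read as positive gave 40 cells, 606 lower genes and medians of 3.24 for the contractile and 2.19 for the basal list. Any read after thinning gave 29 cells, 893 lower genes and a contractile median of 3.32. Higher genes made up 17.8% of all called genes as reported, and 41.2% and 31.1% under these 2 definitions. Above 100 RPKM, the basal median was 2.16 and the myelin median -1.85. Requiring 50 CPM gave 123 higher and 652 lower genes of 3728 and a basal median of 2.18. Cells 38 to 144 alone gave a basal median of 1.98. Leaving out cells with 5 or more pan-epithelial genes gave 3.65 for the basal and -2.25 for the myelin list. Adding 1 CPM gave a contractile median of 4.65. Leaving out cell 30, an alternative added after the data were seen, gave a contractile median of 3.38. The causes were not tested.

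Of the lists with at least 5 genes considered, the only ones recomputed, none with a median of at least 1 in size changed sign in the 17 alternatives. The Schwann identity median ran from -0.88 to -0.39 and passed 1 in size in none of them. TMM scaling gave a median of -0.19 for all genes, with 364 higher and 1473 lower. Of 253 medians recomputed, 229 moved by less than 1.5-fold and 24 by more, 13 of the latter in the pan-epithelial, fibroblast, cell cycle and study luminal lists and 11 in the contractile, basal and myelin lists. A gene unread in the 17 Krt14-positive cells is bounded at 0.464 CPM (3 counts).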

Other observations

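Proliferation genes sat in a few cells of both groups. At least 10 of the 16 cell cycle genes were detected in 4 of the 17 Krt14-positive cells (12, 50, 65 and 79) and in 4 of the 99 Krt14-low cells (48, 55, 68 and 134). Of the 15 cell cycle genes considered 2 were higher and 1 lower, beside 4.28% and 19.7% of all genes. Rrm2 and Tyms, enzymes of nucleotide synthesis, were higher (log2 ratios 3.24 and 3.22, and 1.74 and 1.68 without the top cell). Ccnb1 was lower. Tyms, Mcm3 and Mcm6 were under 10 CPM in the Krt14-low cells and passed the filter through the Krt14-positive cells. The list median was 0.92, and 0.87 with no filter. Without cells 12, 27 and 50 it was -0.86.

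Stress genes were read throughout. Of the 16 immediate early genes a median of 14 (10 to 16) was detected per thinned Krt14-positive cell. The median was 13 (5 to 16) per thinned Krt14-low cell. Of the 15 considered 0 were higher and 0 lower, beside 4.28% and 19.7% of all genes. Of 11 heat shock genes considered, Hspa1b and Hspd1 were higher and 0 lower, beside the same shares of all genes.

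Of 18 Wnt genes considered, Lgr5, a Wnt-potentiating receptor of stem and progenitor cells, Fzd7 and Wnt5a were higher, and Fzd3, Tcf7 and Nkd2 were lower, beside 4.28% higher and 19.7% lower among all genes, with a median log2 ratio of -0.02. Without the top cell Wnt5a was at 1.96. Lgr5 was detected in 11 of 17 (64.7%, 38.3 to 85.8) and 18 of 99 (18.2%, 11.1 to 27.2) thinned cells. Of 11 progenitor surface and enzyme genes considered, 3 were higher (Lgr5, Cd24a and Tspan8) and 0 lower, beside 4.28% and 19.7% of all genes. The other 8 were not called, 4 of the 11 had a ratio below 0, and the list median was 0.34. Cd24a encodes CD24, by which the study sorted basal and luminal cells alike. It had a log2 ratio of 2.92 (2.28 without the top cell), with a read in 9 of 17 and 18 of 99 thinned cells. Tspan8, which the study names among markers of basal stem cell subsets, had 4.92 (2.91 without the top cell). Tspan8 passed the filter through the Krt14-positive cells, and 78.2% of its reads there were in 1 cell. Of 22 collagen and basement membrane genes considered, Col12a1 was higher and Col6a1 lower, beside 4.28% and 19.7% of all genes. The median of that list was -0.17, beside -0.27 for all genes.

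Hair keratins were read in few cells of either group. Krt75 and Krt25, keratins of the hair follicle, stood at 55.9 and 45.7 CPM in the Krt14-positive and at 8.67 and 9.52 CPM in the Krt14-low cells, each read in 3 of the 17 Krt14-positive cells. Krt31 and Krt36 were read in cell 66 alone, with 1253 and 402 reads, and Krt35 in 3 Krt14-low cells with 79.3% of its reads in cell 66. Cells 55 and 110, both Krt14-low, were the only ones of their group with Krt8 or Krt18 above 40 RPKM, against 7 of the 17 Krt14-positive cells.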
